A study of Mus musculus with 2 samples.

Results

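The Src-family kinases described here are Fyn, Src, Yes1 and Lyn, together with Csk, the kinase that restrains them. They were chosen by gene symbol in both deposited transcript tables and are 5 of the 19042 genes with reads. Total hippocampal RNA of females of the strain B6CASTF1/J, a first-generation cross between C57BL/6J and CAST/EiJ, was read by long-read sequencing at 14 days of age. There was 1 group of 2 libraries, biological replicates 1 and 2, each a pool of 3 animals from 2 µg of RNA with ERCC and SIRV spike-in RNAs, and no treatment or second genotype. Replicate 1 held 1168366 reads in 143443 transcript models and replicate 2 held 888704 reads in 126438. The 5 genes took 452 of those reads in 57 models and 457 reads in 60 models. A read is a single cDNA molecule, so exons far apart in a transcript can be read together. The labels number different animals for the 2 pools in 1 field, but another field gives both libraries the same numbers, so the labels do not settle whether the pools share animals. Pooling hides the spread between animals, and with 1 group every test below compares the 2 libraries, or reads of 1 library, with reads as the unit.

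Src-family kinases are membrane-anchored tyrosine kinases in which a unique N-terminal region is followed by an SH3 domain, an SH2 domain, a linker and the kinase domain. Csk phosphorylates a tyrosine in their C-terminal tail, and the tail then folds back on the SH2 domain and holds the kinase inactive. In the hippocampus Fyn and Src are known for acting on NMDA receptors and on synaptic plasticity, and Fyn is also known for its part in myelination by oligodendrocytes. Several of these genes make more than 1 protein by splicing. Fyn uses either a B or a T exon at the end of the linker and the start of the kinase domain, with FynB the form usual in brain and FynT that of T cells. Src in neurons can hold small extra exons, N1 and N2, in its SH3 domain. LynA and LynB differ by a stretch of the unique region.

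The exons on which the Fyn result turns are shown first, beside the matching exon of the other Src-family members. Sequences are from GENCODE M21 transcripts on GRCm38 (mm10), 5′ to 3′, all on the plus strand. In the first set, capitals mark bases identical in all 5 exons when each was aligned to the Fyn T exon. The B exon lies at chr10:39529437-39529601 and is 165 nt, 55 codons long. The T exon lies at chr10:39529919-39530074 and is 156 nt, 52 codons long, with 317 bases between the 2 exons.
Fyn B: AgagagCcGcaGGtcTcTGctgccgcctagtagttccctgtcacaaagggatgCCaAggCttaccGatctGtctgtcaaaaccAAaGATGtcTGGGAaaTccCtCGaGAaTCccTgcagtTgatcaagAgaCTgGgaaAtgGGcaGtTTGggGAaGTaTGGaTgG
Fyn T: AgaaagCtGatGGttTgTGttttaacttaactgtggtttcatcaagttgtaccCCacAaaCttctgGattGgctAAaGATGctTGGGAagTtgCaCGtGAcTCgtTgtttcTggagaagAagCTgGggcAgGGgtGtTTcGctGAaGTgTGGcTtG
Src, chr2:157465873-157466028: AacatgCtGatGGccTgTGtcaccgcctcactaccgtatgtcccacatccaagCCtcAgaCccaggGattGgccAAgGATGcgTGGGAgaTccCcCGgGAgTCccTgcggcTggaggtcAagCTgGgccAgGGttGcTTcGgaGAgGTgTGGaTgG
Yes1, chr5:32655106-32655261: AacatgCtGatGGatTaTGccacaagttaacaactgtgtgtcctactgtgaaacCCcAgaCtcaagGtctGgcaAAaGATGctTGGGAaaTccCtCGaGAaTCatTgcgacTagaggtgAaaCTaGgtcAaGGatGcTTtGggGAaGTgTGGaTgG
Lyn, chr4:3748661-3748813: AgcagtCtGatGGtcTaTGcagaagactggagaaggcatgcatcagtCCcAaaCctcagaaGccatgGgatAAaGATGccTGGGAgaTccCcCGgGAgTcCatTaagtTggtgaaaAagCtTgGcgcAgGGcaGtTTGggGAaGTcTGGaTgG
Of the 156 bases of the T exon, 55 (35.3%) were identical in all 5. Among the 10 pairs of these exons, Fyn B and Fyn T were the least alike, at 56.4% of aligned columns. Fyn T was closer to Yes1 (66.0%), Src (62.8%) and Lyn (62.6%) than to its own partner exon, and so was Fyn B to Lyn (63.3%), Src (62.1%) and Yes1 (60.7%). Src and Yes1 were the most alike, at 72.4%. Both Fyn exons are whole numbers of codons long, so either keeps the reading frame.

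The small N1 exon of Src is shown next, since it is another choice read below. Capitals mark the insertion, with 15 bases of the flanking exons on each side. The exon lies at chr2:157458843-157458860 (18 nt, 6 codons).
Src with N1: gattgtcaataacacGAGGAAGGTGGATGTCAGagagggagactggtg
Src without N1: gattgtcaataacacagagggagactggtg

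Fyn was the leading member in both libraries. Fyn (ENSMUSG00000019843.14, chr10:39368855-39565381, plus strand) had 345 reads in replicate 1 and 377 in replicate 2, which is 295 and 424 reads per 1000000 of the library (CPM; mean 360 ± 91.2, SD, n = 2). By mean CPM it ranked 353 of the 19042 genes. Its share of the reads of the 5 genes was 76.3% in replicate 1, with a 95% exact binomial interval of 72.1 to 80.2, and 82.5% (78.7 to 85.9) in replicate 2. These intervals, like all intervals below, cover counting error only.

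The other members had between 14 and 39 reads in a library. Src (ENSMUSG00000027646.15, chr2:157418444-157471862, plus strand) had 29 and 27 reads, 24.8 and 30.4 CPM. Csk (ENSMUSG00000032312.7, chr9:57626646-57653631, minus strand) had 39 and 20 reads, 33.4 and 22.5 CPM. Their means of 27.6 ± 3.93 and 27.9 ± 7.69 CPM (SD, n = 2) differ by less than either SD, and replicate 2 had Src above Csk. Yes1 (ENSMUSG00000014932.15, chr5:32611171-32687057, plus strand), a close relative of Src found in most tissues, had 25 and 17 reads, 21.4 and 19.1 CPM (mean 20.3 ± 1.60). Lyn (ENSMUSG00000042228.14, chr4:3678115-3813122, plus strand), in the brain known mainly from microglia, had 14 and 16 reads, 12 and 18 CPM (mean 15 ± 4.26). The exact Poisson intervals of Src, Yes1 and Lyn overlapped each other in each library. Those of Csk and Lyn overlapped in replicate 2 (13.7 to 34.8 and 10.3 to 29.2 CPM) and not in replicate 1 (23.7 to 45.6 and 6.55 to 20.1 CPM).

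Levels of different genes are also given per kilobase of mean model length, weighted by reads. Since a read is a single molecule, CPM itself is not divided by length. Models that cover only the 3′ end shorten the mean length, which was 1817 nt for Csk and 2622 nt for Src. On the per-kilobase scale the mean levels were 118 CPM per kb for Fyn, 15.4 for Csk, 10.5 for Src, 6.70 for Yes1 and 5.13 for Lyn. The order was the same as by CPM. With annotated transcripts only, Fyn still led but Yes1 came second and Src last, since 3 of 29 and 10 of 27 Src reads matched an annotated transcript.

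**Figure D1:**
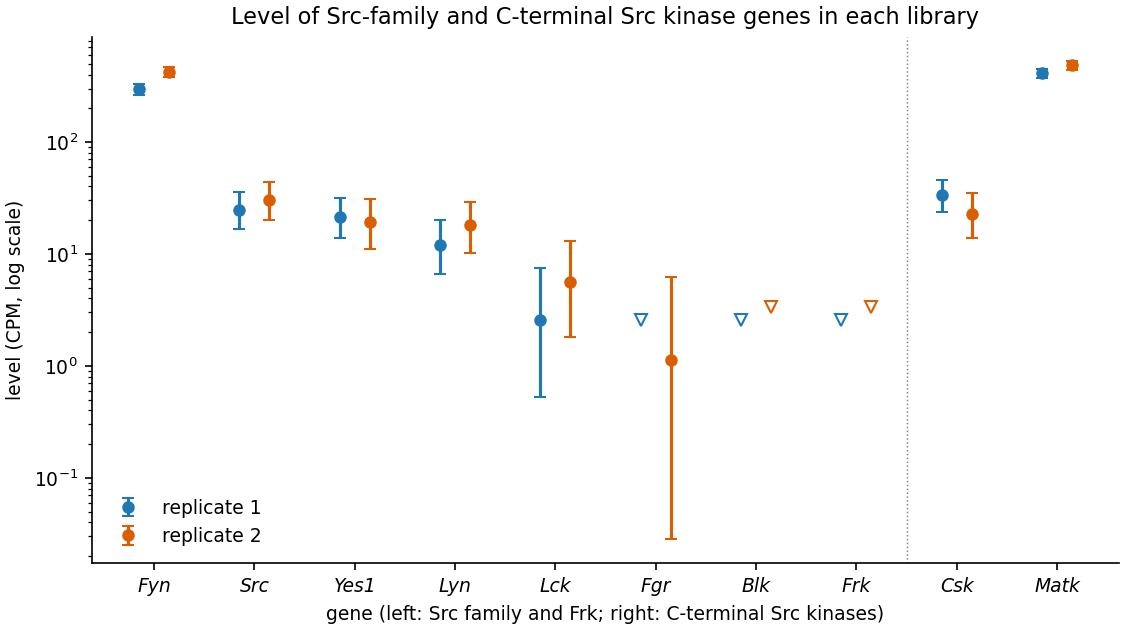
Level of each gene in CPM (vertical axis, log scale) in replicate 1 and replicate 2, with exact 95% Poisson intervals; open triangles mark a gene with 0 reads, drawn at the level of 3 reads. Fyn and Matk stand at 295 to 484 CPM in the 2 libraries, and Src, Yes1, Lyn and Csk between 12 and 33.4 CPM.

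Other relatives were close to the detection limit, which for a count of 0 is 3 reads or 2.57 CPM in replicate 1 and 3.38 CPM in replicate 2. Lck, the T cell member, had 3 and 5 reads. Fgr, a myeloid member, had 0 and 1. Blk, the B cell member, and the related kinase Frk had 0 reads in both. None of these 4 reached the 10 reads over both libraries that a gene needed to be tested.

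Of the 5 members, Fyn alone passed the test between libraries. It was higher in replicate 2 by 0.52 in log2 of CPM plus 1 (two-sided exact binomial test, adjusted p = 4.76e-05 over all genes). The log2 difference was 0.28 for Src, -0.15 for Yes1, 0.55 for Lyn and -0.55 for Csk, with adjusted p from 0.485 to 0.948 in the same exact test. Across all 11681 genes tested, 11.5% were called, 6.25% as higher in replicate 2 and 5.24% as higher in replicate 1, so 1 call among 5 genes is near the background. The libraries also differed by transcript length. The median log2 difference was -0.66 in genes whose models averaged under 1000 nt and 0.32 in those of 3000 to 4000 nt, and the trend at the length of Fyn was 0.28. With that trend removed, Fyn was no longer called (log2 0.25, adjusted p = 0.265, exact binomial test).

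**Figure D2:**
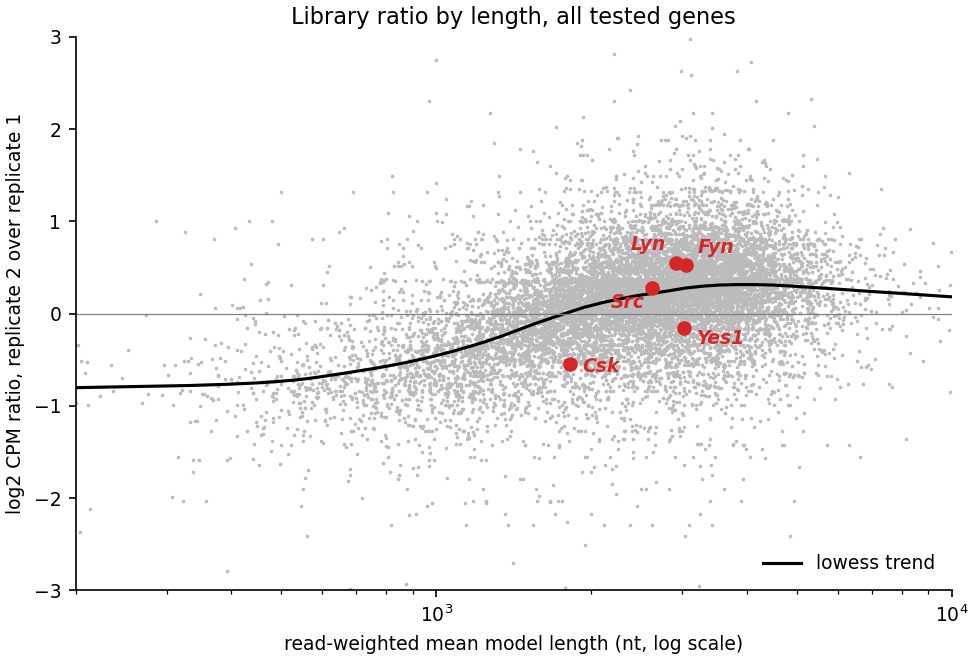
Log2 CPM ratio of replicate 2 over replicate 1 (vertical axis) against read-weighted mean model length in nt (horizontal axis, log scale) for the tested genes (grey points), with the lowess trend (line) and the 5 members in red; 92 of 11681 genes lie outside the axes. Fyn at 0.52 sits above a trend of 0.28, and Csk, whose models are the shortest of the 5, sits at -0.55, below a trend of 0.018.

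Brain cell markers were present in both libraries, and choroid plexus markers differed between them. All 7 neuron markers, all 6 astrocyte markers and all 6 microglia markers had reads. Of the tested markers 6 of 7 neuron, 5 of 6 astrocyte, 3 of 5 oligodendrocyte and 3 of 6 microglia markers were higher in replicate 2, and 0 of these lists' markers were higher in replicate 1. Over all genes tested, 6.25% were higher in replicate 2 and 5.24% in replicate 1. With TMM-scaled totals 2 neuron, 5 astrocyte, 3 oligodendrocyte and 1 microglia markers were higher in replicate 2, beside 370 of all 11681 genes. Under that scaling the neuron marker Tubb3 was higher in replicate 1. Correcting each gene for its model length left 1 neuron marker (Rbfox3), 4 astrocyte, 2 oligodendrocyte and 1 microglia markers higher in replicate 2. Of all 11681 genes, 157 were then higher in replicate 2. The 4 choroid plexus markers Ttr, Kcnj13, Clic6 and Folr1 were all higher in replicate 1, where they summed to 4636 CPM against 5.63 CPM in replicate 2, and the last 3 had 0 reads in replicate 2. The part of these differences in the Fyn difference was not tested, and in bulk RNA fewer cells of a type and less RNA per cell cannot be told apart. The labels call the source a layer of hippocampus and name no layer.

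Nearly all Fyn molecules held the B exon. Among reads that joined both flanking exons, 276 of 304 in replicate 1 and 317 of 336 in replicate 2 held B alone, which is 90.8% (87.0 to 93.8) and 94.3% (91.3 to 96.6). T alone was held by 25 and 15 reads, 8.22% (5.39 to 11.9) and 4.46% (2.52 to 7.26), a mean of 6.34% ± 2.66 (SD, n = 2). In replicate 1, 2 reads held both exons, 321 nt together, and in replicate 2 none did, where a count of 0 of 336 has an exact upper bound of 1.09%. The remaining 1 and 4 reads used the B exon with its splice acceptor shifted by at most 4 nt. The lower T share of replicate 2 did not pass the test over the whole table. Counting reads with both exons, Fisher's exact test gave p = 0.0258 and an adjusted p of 0.625 over the 6691 exons tested, of which 0.149% were called.

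T cell markers were near or at 0 beside these T exon reads. Cd3e, Cd3d, Cd3g and Cd8a had 0 reads in both libraries, and Cd4 had 1 and 0. With Lck at 3 and 5 reads, the whole list of 6 T cell markers came to 4 and 5 reads (3.42 and 5.63 CPM), beside 25 and 15 Fyn reads with the T exon alone. Which cells the T exon reads came from was not tested, and read counts of different genes in bulk RNA cannot show it.

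Fyn reads began at 2 main first exons, and both were joined to the same coding exons. The upstream first exon (39369798 to 39370190 on chromosome 10) was the first exon of 229 reads in replicate 1 and 260 in replicate 2, 66.4% (61.1 to 71.3) and 69.0% (64.0 to 73.6) of the gene's reads. An internal first exon (39420009 to 39420258), which starts 50211 nt further downstream, was used by 67 and 60 reads, 19.4% (15.4 to 24.0) and 15.9% (12.4 to 20.0). In GENCODE M21 the internal exon belongs only to the short transcript Fyn-209. Both lie upstream of the exon that holds the start codon (39511739 to 39511996), so they are untranslated and the choice between them leaves the coding sequence as it is. Of the rest, 32 and 35 reads began at the start-codon exon or later, 13 and 16 had 1 exon, and 4 and 6 began at other 5′ sites. The share of spliced reads with the upstream exon, 69.0% and 72.0%, did not pass the test between libraries (Fisher's exact test, adjusted p = 1), and 0.234% of the 5546 genes tested did.

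Read as whole chains of exons, the 2 first exons gave the 2 leading Fyn molecules. The annotated transcript Fyn-202, with the upstream first exon, the B exon and 14 exons in all, took 195 and 222 reads (56.5% and 58.9%). The next chain, with the internal first exon, the B exon and 13 exons, took 59 and 53 reads (17.1% and 14.1%) and matches no annotated transcript from end to end. Fyn-201, the upstream chain with the T exon, took 18 and 11 reads. A chain of the last 4 exons took 21 and 17 reads, more in each library than Fyn-201. Its longest model starts at 39533270, inside the intron that precedes these exons in Fyn-202. In total 42 different Fyn chains were read, 18 of them in both libraries and 17 with a single read. The share of Fyn-202 did not pass the test between libraries (Fisher's exact test, adjusted p = 1), where 0.839% of the 6439 genes tested were called.

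The T exon was joined to both first exons. Among reads with either B or T alone, T was held by 19 of 226 upstream and 6 of 66 internal reads in replicate 1, 8.41% (5.14 to 12.8) and 9.09% (3.41 to 18.7). In replicate 2 it was held by 13 of 257 and 1 of 59, 5.06% (2.72 to 8.49) and 1.69% (0.0429 to 9.09). The difference, internal minus upstream, was 0.68 percentage points in replicate 1 and -3.36 in replicate 2, opposite in sign, and neither passed Fisher's exact test (p = 0.807 and 0.481, adjusted p = 0.807 for both). There were 7 internal T reads in all. The T reads fell in several chains. Fyn-201 and the internal 13-exon T chain (5 and 1 reads) held most, Fyn-204, which skips an untranslated exon, had 1 and 2 reads, and 2 further chains had 1 read each. Both reads with the B and T exons together began at the upstream exon.

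**Figure D3:**
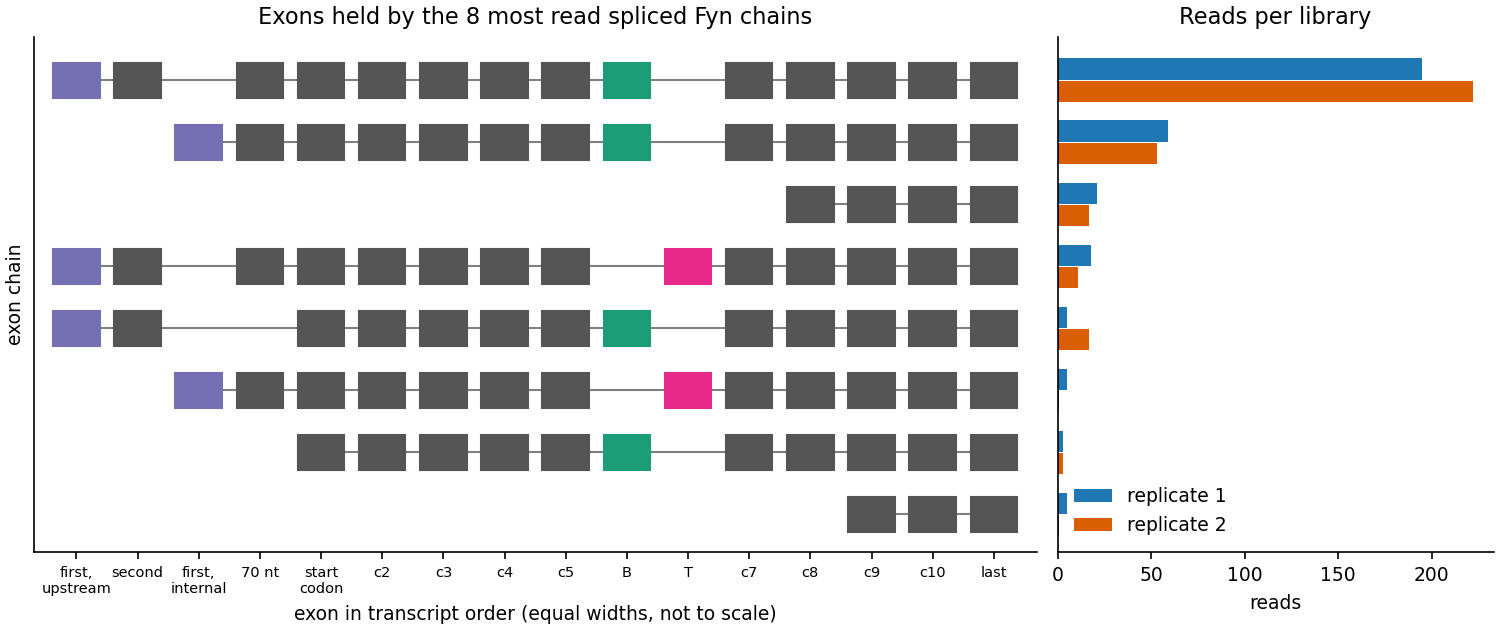
Exons held by the 8 spliced Fyn chains with the most reads (left, exons in transcript order at equal width, first exons violet, B green, T pink) and the reads of each in replicate 1 and replicate 2 (right). The Fyn-202 chain has 195 and 222 reads and the chain with the internal first exon 59 and 53, while the T chains have at most 18.

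**Figure D4:**
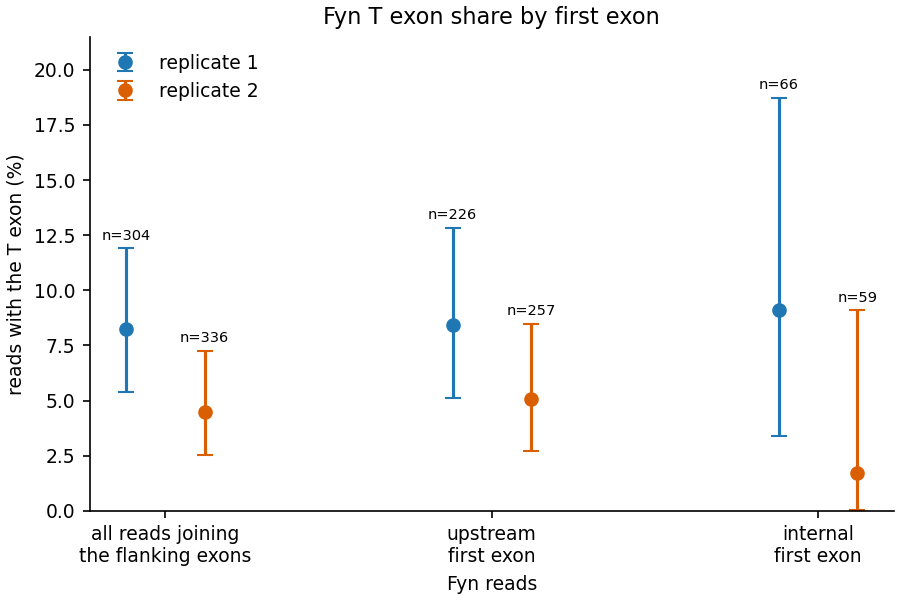
Share of Fyn reads with the T exon alone in percent (vertical axis), over all reads joining the flanking exons and, by first exon, over reads with B or T alone, in each library, with exact 95% binomial intervals and the number of reads. The intervals of the upstream and internal first exons overlap in both libraries.

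A 70-nt untranslated exon of Fyn (chr10:39455066-39455135) was skipped at times from either first exon. It was left out of 6 of 229 upstream reads in replicate 1 (2.62%, 0.967 to 5.62) and 19 of 260 in replicate 2 (7.31%, 4.46 to 11.2). From the internal exon it was left out of 1 of 67 (1.49%) and 2 of 60 (3.33%). A further upstream read of replicate 1 and internal read of replicate 2 held the exon with 1 splice site shifted. The leading chain without it, upstream and B, had 5 and 17 reads. Both ways of framing the event were tested among the 6691 exons, and neither passed (Fisher's exact test, adjusted p = 0.740 from the upstream first exon, where the read with a shifted site counts as without the exon, and 0.601 from the second exon).

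Many Src reads covered only the 3′ end of the gene, and few reached its neuronal exons. Of the Src reads, 16 of 29 in replicate 1 (55.2%) and 11 of 27 in replicate 2 (40.7%) had a single exon at the 3′ end of the gene. Only 6 and 13 reads joined the exons on both sides of the N1 site. N1 was in 2 of 6 reads in replicate 1 (33.3%, 4.33 to 77.7 for N1 alone). In replicate 2, 6 of 13 held N1 alone (46.2%, 19.2 to 74.9), 1 held both N1 and N2, and 6 held neither. So 33.3% and 53.8% of joining reads had N1, against 4 and 6 reads without either exon. The N1 reads were the annotated Src-202 (2 and 4 reads), Src-203 (0 and 1) and an unannotated 14-exon chain (0 and 1), and Src-201, without N1, had 1 and 5 reads.

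The N2 exon (chr2:157461943-157461975, 33 nt, 11 codons) is in no M21 transcript of Src. The read that held it also held N1 and ran through 16 exons. In replicate 1 a further read had a first exon that ended at the N2 donor. The model of that read starts at 157461675, upstream of the N2 exon, so it does not use the N2 acceptor. It was not counted as an N2 read, and it cannot show whether N1 was there. No read that joined the flanking exons held N2 without N1, and with 1 N2 read no test of the pair was possible. The N1 event had too few reads for the test over all exons, which asked for 20 in each library.

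Lyn was read in both its forms. LynA was 9 of 10 reads in replicate 1 (90.0%, 55.5 to 99.7) and 6 of 12 in replicate 2 (50%, 21.1 to 78.9). LynB was 1 of 10 and 6 of 12. The intervals overlap and the reads were too few for the table-wide test, so no difference was tested. Lyn-201, the full LynA chain, had 7 and 5 reads and Lyn-202, the full LynB chain, 1 and 6. A 1-exon model at chr4:3807537-3809670 carried the Lyn name with 3 and 1 reads and holds none of the coding exons of Lyn-201.

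**Figure D5:**
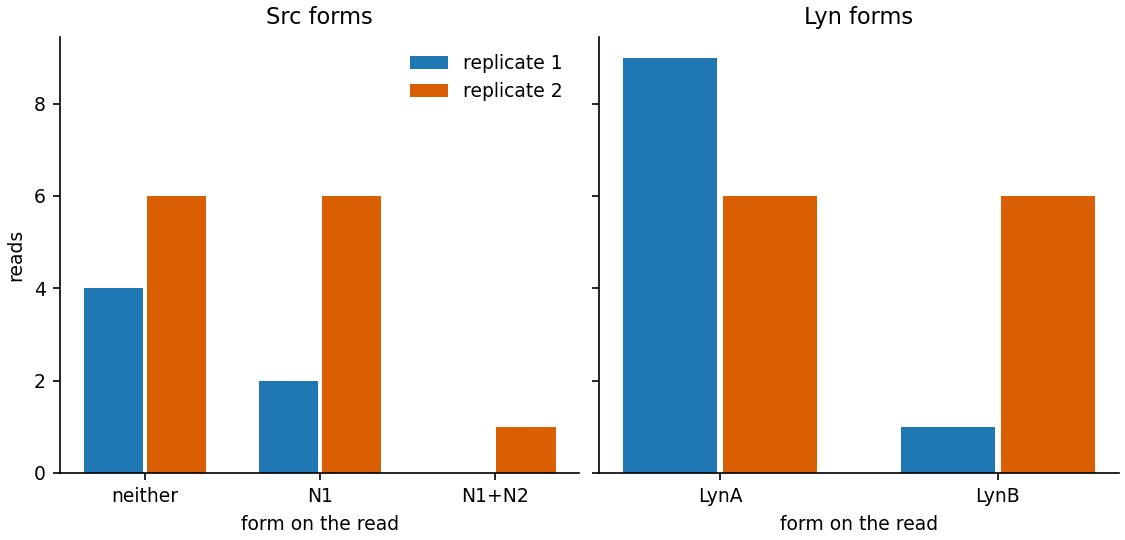
Reads of each Src form (left) and Lyn form (right) in replicate 1 and replicate 2, on a common vertical axis that starts at 0. Every bar is 9 reads or lower, and the Src form with N1 and N2 is a single read of replicate 2.

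Yes1 was the member most often read from end to end. Yes1-205 had 21 and 12 reads, and an annotated transcript with another first exon had 4 and 2. In replicate 2, 2 reads skipped the exon with the start codon (chr5:32640331-32640603) and 1 used an unannotated first exon. Every Yes1 read was spliced, and all 4 chains held the same linker exon.

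Csk was read mostly as 3′ pieces in replicate 1. A chain of its last 4 exons had 19 of 39 reads there (48.7%) and 5 of 20 in replicate 2 (25.0%). It was the leading chain of Csk, and its share did not pass the test between libraries (Fisher's exact test, adjusted p = 0.750). The full Csk-201 had 11 and 10 reads. Reads on the opposite strand over Csk numbered 21 and 5, all with 1 exon, and they are not in the Csk count.

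The members differed in the share of reads that held a whole annotated chain of coding introns. A read was counted when it held all coding introns of an annotated transcript, among transcripts with at most 1 coding intron fewer than the longest. A read through all the exons with a shifted splice site or an unannotated skip was not counted, so the share is not coverage alone. The share was 86.4% and 85.9% for Fyn and 100% and 88.2% for Yes1. It was 57.1% and 68.8% for Lyn, 30.8% and 50% for Csk, and 17.2% and 44.4% for Src. Over 3263 genes with at least 8 coding introns and 20 reads in each library, the members included, the median was 63.6% and 66.6%. Fyn and Yes1 were above it and Csk and Src below it in both libraries, and the exon choices of Src rest on few of its reads.

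The genes that act on the members were present at very different levels. Matk, which like Csk phosphorylates the C-terminal tail and is known from brain and blood cells, had 478 and 430 reads, 409 and 484 CPM (mean 446 ± 52.8). Per kilobase Matk had 225 CPM against 15.4 for Csk, and it was above Csk in both libraries. The adaptors were low. Pag1, which brings Csk to the membrane, had 1 and 1 reads, and Lime1, a similar adaptor, had 7 and 5. The ubiquitin ligases Cbl (1 and 1 reads), Cblb (4 and 6) and Cblc (0 in both) were low too. Of the 4 genes of this list that were tested, Csk included, 0 were called, beside 11.5% of all genes tested.

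Among phosphatases that act on these kinases, Ptpra, which removes the inhibitory tail phosphate, led with 324 and 333 reads (277 and 375 CPM, mean 326 ± 68.9). It was the 1 of 7 tested genes of the list that was called, beside 11.5% of all genes tested. Ptpra was higher in replicate 2 by 0.43 on the log2 scale (exact binomial test, adjusted p = 0.00249). It was not called with TMM-scaled totals or with the length trend removed. Ptpn5, the striatal-enriched phosphatase that acts on Fyn and on NMDA receptors, was at 112 ± 2.29 CPM, and Ptpn1 at 78.2 ± 19.9. Ptpre was at 50.1 ± 10.3 CPM, Ptprj at 17.5 ± 5.43, Ptpn11 at 11.2 and Ptpn6 at 6.80. Ptprc, the phosphatase of leukocytes, had 0 and 2 reads. The median log2 difference of the tested genes of the list was 0.41, against 0.11 over all genes tested. By length the median over all genes was 0.32 at 3000 to 4000 nt, where Ptpra, Ptpn1 and Ptpn11 lie, and 0.32 above, where Ptpre lies. It was 0.20 at 2000 to 3000 nt, where Ptpn5, Ptpn6 and Ptprj lie.

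Synaptic partners and substrates were called in both directions between libraries. Of 11 tested, 4 were higher in replicate 2 and 1 in replicate 1, with a median log2 difference of 0.22, beside 6.25% and 5.24% of all genes tested and a median of 0.11. For genes of 3000 to 4000 nt, among them Grin1, Ptk2b and Dlgap1, the median over all genes was 0.32. The 4 most abundant were the 4 that were higher in replicate 2. These were the vesicle protein Syp (1345 ± 105 CPM), the NMDA receptor subunit Grin1 (419 ± 81.2), the kinase Ptk2b (277 ± 78.0), which acts upstream of Src, and the scaffold Dlgap1 (173 ± 42.9). The exact test can call a smaller log2 difference where a gene has more reads, and that of Syp was 0.16. Grin2b, the NMDA receptor subunit phosphorylated by Fyn and named here after its values were seen, was higher in replicate 1, with 99 and 42 reads. With TMM-scaled totals the calls were Ptk2b and Grin2b, and with the length trend removed there were 0.

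Of the 13 adhesion and cytoskeletal substrates, 2 were higher in replicate 2 and 0 in replicate 1, close to the 11.5% of all genes called in either direction. These were cortactin, Cttn (357 ± 63.8 CPM), and the actin regulator Wasf1 (245 ± 47.0), and neither was called with TMM-scaled totals. Abi1 (144 ± 11.8 CPM) and Cdk5 (127 ± 9.88) were not called. Of the 8 genes of the oligodendrocyte Fyn pathway, 2 were higher in replicate 2 and 1 in replicate 1, against the same 11.5%. Mbp, the myelin protein whose mRNA is carried and translated under Fyn control, had 3840 and 3893 reads (3287 and 4381 CPM). Qk, an RNA-binding protein of oligodendrocytes, had 191 and 214 reads, and Hnrnpa2b1, which binds Mbp mRNA, had 872 and 511 and was the gene higher in replicate 1. Mag (98.9 ± 2.99 CPM), Cntn1 (162 ± 33.2), Itgb1 (105 ± 12.0), Itga6 (13.5 ± 1.54) and Lingo1 (124 ± 21) were not called. With the length trend removed Mbp was the only call of this list.

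Regulators of neural exon choice were also read. Ptbp1, which represses the N1 exon of Src outside neurons, had 13 and 17 reads (11.1 and 19.1 CPM). Its neural relative Ptbp2 had 87 and 94 reads (74.5 and 106 CPM, mean 90.1 ± 22.1), above Ptbp1 per kilobase as well, at 26.1 against 5.77 CPM per kb. Rbfox3 (275 ± 92.0 CPM) led this list, followed by Hnrnpa1 (194 ± 1.13) and Rbfox1 (109 ± 10.7). Of 11 tested, Rbfox3 and Khdrbs1 were higher in replicate 2, where 6.25% of all genes were, and 0 were higher in replicate 1. Rbfox3 was called under each scaling tried and Khdrbs1 (79 and 96 reads), named after its values were seen, was not with TMM-scaled totals. How these levels relate to the exon choices of Fyn and Src was not tested.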

How the data were processed

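Per the labels, long-read cDNA libraries came from 2 pools of mouse hippocampus, labelled as biological replicates. The authors deposited unscaled counts of reads for each transcript model, built on mm10 and GENCODE M21 per the file headers. The deposited annotation names TALON for models it adds. The aligner, its version and the read filters (not given in the sources used here) can change these counts. Exon chains came from the deposited coordinates, and models were matched between libraries by intron chain. Unannotated splice sites were kept. Ends of models are not ends of single reads.

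CPM used all 1168366 and 888704 reads. The tests were two-sided: an exact binomial test per gene (at least 10 reads over both libraries) and Fisher's exact tests of exons, first exons and leading chains (at least 20 reads in each library, and for exons at least 5% of reads on each side), with Benjamini-Hochberg adjustment over all features and a threshold of 0.05. Log2 ratios added 1 CPM, apart from those of members under alternative settings, which added a fraction of a read to each count. The p-values measure counting error and no spread between animals. The gene test and the exon test between libraries were checked on data simulated with counting error alone, and the other tests were not. edgeR 4.0.16 (TMM) and DESeq2 1.42.0 gave alternative scalings under R 4.3.3. Python 3.11.15, scipy 1.17.1, Biopython 1.88 (alignment) and statsmodels 0.14.6 (lowess) were used.

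Members and gene lists were chosen with earlier results of these data known. The text names the members, their 5 leading chains and chains with a described exon, every gene of lists of at most 9 genes apart from 1 not reported here, the 4 most abundant genes of longer lists, and genes with 0 reads.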

Additional observations from a re-analysis of the deposited data

How the results depend on the processing

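Fyn led the 5 genes under each of the 7 alternatives tried for the levels, with a share of 75.3% to 83.0%, and from 76.3 to 82.5% in single libraries. The share of Fyn reads with T alone was 5.97% to 7.21% under the other read selections and 4.46 to 8.22% in single libraries. For the Src exon the share of joining reads with N1 had a mean of 43.6%, 33.3 to 53.8% in single libraries. With annotated transcripts only the mean was 58.3%, from 66.7% of 3 reads in replicate 1 and 50% of 10 in replicate 2. With models of at least 2 reads it was 72.2%, from 100% of 2 reads in replicate 1 and 44.4% of 9 in replicate 2. The 1342 genes called between libraries became 331 with the length trend removed. Calls split 612 higher in replicate 1 and 730 in replicate 2, 805 and 370 with TMM-scaled totals, and 802 and 385 with DESeq2 size factors, which shift all genes by -0.127 and -0.122 in log2. Reads of annotated genes without spike-ins as total gave 690 and 583. The Csk difference, not called in either case, was 0.26 in log2 with annotated transcripts only against -0.55. Exon choice gave 10 calls, 24 with a minimum of 50 reads, 5 with annotated transcripts only and 30 with models of at least 2 reads, and the T exon of Fyn was not among them at adjusted p 0.307 to 0.865 by Fisher's exact test. With annotated transcripts only, first exon calls fell from 13 to 1 and leading transcript calls from 54 to 5. The T exon difference by first exon in replicate 1, 0.68 points, was -1.03 with both libraries pooled (p = 0.838, Fisher's exact test) and -0.37 with models of at least 2 reads. The causes were not tested. Annotated transcripts alone could not give that comparison, since the internal first exon has no annotated full-length transcript. The shifted B acceptor and the list counts under other scalings were added after seeing the data. Src, Lyn, Yes1 and Csk, at 14 to 39 reads, are limited by depth. No paired analysis was possible because the series has a single group.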
